A study of Mus musculus with 2 samples.

Results

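Type 1 conventional dendritic cells (cDC1) were taken from 2 single-cell RNA libraries by a gate on raw counts of unique molecular identifiers (UMIs), each of which stands for 1 captured RNA molecule. A cell passed with at least 300 genes and at most 10% mitochondrial UMIs, at least 2 UMIs of Xcr1 and Clec9a together and at least 1 of Irf8. It could hold at most 3 UMIs of C1qa, C1qb and C1qc together, at most 1 of Cd3d, Cd3e and Cd3g together, at most 1 of Cd79a and at most 1 of Fscn1. The gate held 78 of 10041 retained cells (11647 barcodes deposited), 24 of 5435 in the control library and 54 of 4606 in the metformin library. The cells were thus chosen by the UMIs of those 11 genes, whose levels are given as a description and support nothing.

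Both libraries came from C57BL/6 mice with GL261 tumours, a mouse glioma line grown in the brain by intracranial injection, and were taken on day 20. The control group drank control water and the other group had metformin, a biguanide drug that acts on complex I of the respiratory chain, in its drinking water. From the tumour region, cells with high CD45, which marks immune cells that come from the blood, were sorted and their RNA was counted with a droplet kit that reads the 3' ends. The labels give no number of mice, sex, age, metformin dose or sort gate. With 1 library per group nothing below has a replicate check, and the treatment could not be tested. Intervals are exact 95% intervals and cover counting error only. Those of genes treat each UMI as independent and leave out the spread between cells as well.

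cDC1 are dendritic cells that take up dead cells and present their antigens on MHC class I to CD8 T cells, a route called cross-presentation. They depend on the transcription factors IRF8 and BATF3, sense damaged cells through the receptor CLEC9A, and are drawn by XCR1 to the chemokine XCL1, which NK and CD8 T cells release. Type 2 conventional dendritic cells (cDC2) present antigen mainly on MHC class II to CD4 T cells. In tumours, cDC1 are known as a source of CXCL9, CXCL10 and IL-12.

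The 3 genes of the gate that select for cDC1 lie apart in the genome (GRCm38, the assembly of mm10, GENCODE gene bounds). Xcr1 (ENSMUSG00000060509) is at chr9:123852315-123862029 on the minus strand. Clec9a (ENSMUSG00000046080) is at chr6:129408862-129424763 on the plus strand. Irf8 (ENSMUSG00000041515) is at chr8:120736358-120756694 on the plus strand. Of the 5 marker genes given for the cells, Naaa (ENSMUSG00000029413, chr5:92257659-92278170, minus strand), which codes for an amidase of lysosomes, and Wdfy4 (ENSMUSG00000051506, chr14:32959547-33185508, minus strand), needed for cross-presentation, were not used by the gate and serve to check it.

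The markers matched the label in most of the gated cells and went against it in 13 cells with Siglech and in single others. Naaa had a median of 8.5 UMIs per cell in the control library (range 0 to 75) and 17 in the metformin library (range 0 to 73). A Naaa UMI was found in 79.2% of control and 85.2% of metformin cDC1, against 6.77% and 15.6% of B cells (at least 3 Cd79a UMIs), where it serves as the background. Closer classes held it more often: 60.0% and 60.7% of cDC2 and 38.2% and 43.5% of macrophages and microglia. The median cDC1 had 18106 and 17393 UMIs and the median B cell 5746 and 5289. With each cell thinned to 8902 UMIs, which left out 2 control and 6 metformin cDC1, the shares were 72.7% and 81.2% in cDC1 and 12.4% and 27.1% in the B cells deep enough, 6 of 15 and 10 of 20 in cDC2 and 46.3% and 48.0% in macrophages and microglia. At the level of summed counts, Naaa was at 869 and 1107 CPM (UMIs of the gene scaled to 1000000 UMIs of the summed cells) in cDC1, 109 and 205 in cDC2 and 87.3 and 93.3 in macrophages and microglia. For Wdfy4 the shares were 83.3% and 87.0% in cDC1, or 77.3% and 79.2% after thinning, but B cells, at 42.3% and 36.0%, express this gene too.

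The 13 cells, 5 control and 8 metformin, held at least 2 UMIs of Siglech, a receptor of plasmacytoid dendritic cells, which make type I interferon. None held an Xcr1 UMI, so all entered through Clec9a. Their summed level of Ly6d was 979 and 3239 CPM, against 0 UMIs in the cells with Xcr1. Ccr9 was at 1059 and 1313 CPM in the Siglech cells and at 0 and 3.74 CPM in the cells with Xcr1. Batf3 and Itgae had no UMI in any of the 13, and H2-Aa, a chain of MHC class II, was at 416 and 1065 CPM against 9176 and 9042 in the cells with Xcr1. Summed, these 13 cells thus carried markers of plasmacytoid cells and held next to none of those of cDC1 outside the gate, with 2 Naaa UMIs in each library. They were not uniform, as Ly6d was found in 3 of the 5 control and 7 of the 8 metformin cells. The control cells without Ly6d had 8 and 4 Siglech UMIs and held 8 and 11 UMIs of Cd209a, a marker of cDC2. The counts below were also taken without the 13 cells, a choice made after seeing the data, and such values are given for most lists whose count changed.

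Of the other 65 cells, 53 held an Xcr1 UMI (16 and 37) and 12 did not (3 and 9). The 12 had Naaa at 273 and 688 CPM, below the 1155 and 1299.8 CPM of the cells with Xcr1, and Irf8 at 273 and 547 CPM against 2079 and 1510.4. Both receptors were seen together in 15 control and 34 metformin cells, Clec9a alone in 8 and 17, and Xcr1 alone in 1 and 3. Among the 12 without Xcr1, a single metformin cell had 1 Naaa UMI, 1 Wdfy4 UMI and none of Batf3, Itgae, Flt3 or H2-Aa, beside 549 UMIs of Lyz2 and 234 of Ly6c2, a gene of monocytes. Another had none of Naaa, Wdfy4, Batf3, Itgae and Ppt1, with 41 UMIs of H2-Aa. The shares of cells with each receptor differed little between libraries, at 62.5% and 63.0% for both receptors and 33.3% and 31.5% for Clec9a alone.

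At the threshold itself the cells were mixed. In the 23 cells with exactly 2 UMIs of Xcr1 and Clec9a, 14 held Naaa, 9 held Batf3 and 10 held at least 2 Siglech UMIs, and H2-Aa had a median of 41 UMIs. In the 49 cells with at least 4, 47 held Naaa, 46 held Batf3 and 2 held at least 2 Siglech UMIs, and H2-Aa had a median of 203. Just outside, 34 cells met every other limit with exactly 1 UMI, of which 14 held Naaa, 4 held Batf3 and 12 held at least 2 Siglech UMIs.

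**Figure D1:**
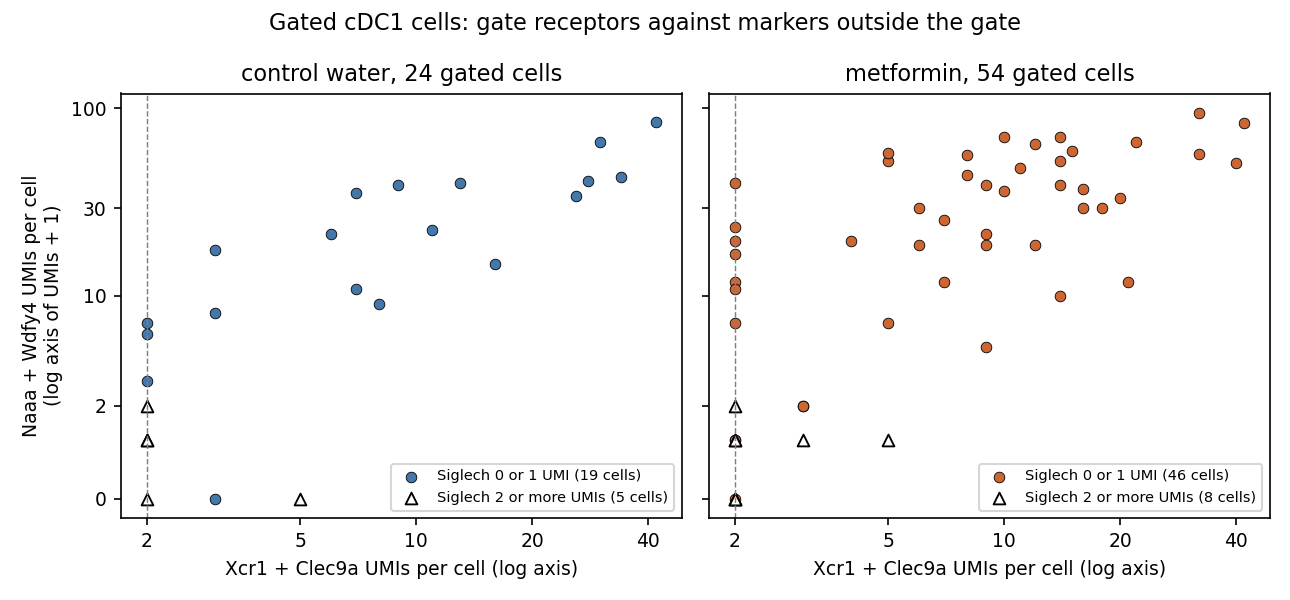
Each point is 1 gated cell, control on the left and metformin on the right. The x axis gives the UMIs of Xcr1 and Clec9a together and the y axis the UMIs of Naaa and Wdfy4 together, both on log axes, and points with the same values overlap. Open triangles are the 5 control and 8 metformin cells with at least 2 Siglech UMIs, all of which lie at 2 or fewer UMIs of Naaa and Wdfy4, and 10 of them at the gate's edge of 2 (dashed line).

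The libraries held 49651404 and 47142356 UMIs, with medians of 7339 and 7967 per retained cell. They shared 9 cell barcodes, none of them among the gated cells. Scrublet marked 1.14% and 0.803% of retained cells as doublets and none of the gated cells, and no cell was removed. The gated cells summed to 430273 and 1023382 UMIs, so the control cDC1 are the shallower side of every ratio. Markers of other cell types were measured in the gated cells as sums over fixed lists. T cell markers were at 58.1 and 58.6 CPM, neutrophil markers at 13.9 and 5.86, NK markers at 365 and 651 and macrophage and microglia markers at 456 and 585 CPM. Monocyte markers stood at 3777 and 4152 CPM, mostly from Plac8 (2519 and 2745 CPM) and Ly6c2 (755 and 846 CPM), and plasmacytoid markers at 2178 and 1885 CPM, or 509 and 605 without the Siglech cells. Of the listed markers Ebf1, Ly6g, Mmp9, Retnlg, Vcan, Chil3 and Pf4 were at 0 in both libraries.

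A larger share of the metformin library than of the control library passed the cDC1 gate. The gate held 0.442% of control cells (interval 0.283 to 0.656) and 1.17% of metformin cells (0.882 to 1.53), a ratio of 2.65 (1.61 to 4.49). Without the Siglech cells the shares were 0.350% and 0.999%, a ratio of 2.86 (1.64 to 5.16). B cells, by the Cd79a gate, were 665 of the control and 250 of the metformin cells, and leaving them out of the total gave shares of 0.503% and 1.24% (ratio 2.46, 1.5 to 4.17). The CD45 sort can also set these shares, and with 1 library each the sort, the animals and the treatment cannot be told apart.

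Other dendritic cells were also at larger shares in the metformin library. cDC2 were gated on Flt3, on Cd209a, Clec10a or Sirpa, and on at least 5 UMIs of H2-Ab1, with the limits of the cDC1 gate on C1q, Cd3, Cd79a and Fscn1 genes, at most 1 UMI of Xcr1 and Clec9a and at most 1 of Siglech. They numbered 20 and 28, or 0.368% and 0.608% (ratio 1.65, 0.898 to 3.09). Mature dendritic cells, gated on at least 2 UMIs of Fscn1 and 1 of Ccr7, were 32 and 59, or 0.589% and 1.28% (ratio 2.18, 1.39 to 3.46). There were 1.2 cDC1 per cDC2 in the control library and 1.93 in the metformin library. The ratio of these ratios was 1.61 (0.708 to 3.62), and its interval includes 1.

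**Figure D2:**
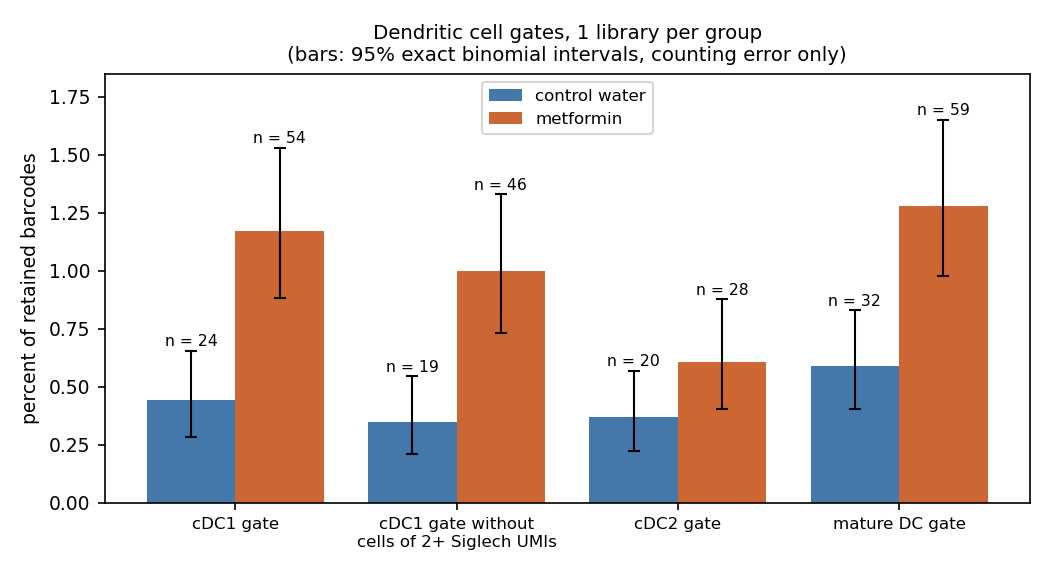
Bars give the percent of retained barcodes in each dendritic cell gate for the control (blue) and metformin (orange) library, with exact 95% binomial intervals that cover counting error only and the number of cells above each bar. The cDC1 gate held 0.442% and 1.17%, and the metformin bar is the taller one for each of the 4 gates.

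XCL1, the ligand of XCR1, was measured in the cells known to release it. In NK cells (Ncr1 and Klrb1c present, at most 1 Cd3 UMI) Xcl1 was at 767 CPM in control and 842 CPM in metformin (ratio 1.10, 1.03 to 1.17). In CD8 T cells it was at 114 and 101 CPM (ratio 0.888, 0.809 to 0.974), and the gated cDC1 held 2 UMIs of it in each library. Levels of the ligand thus differed by less than the 1.5-fold used for genes below. Flt3l, the growth factor of dendritic cells, was at 38.0 and 42.7 CPM in NK cells (ratio 1.12, 0.839 to 1.52).

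In both libraries cDC1 had genes of cDC1 identity higher, genes of cDC2 identity lower and part of the interferon-induced genes lower than cDC2, with ratios that varied between the libraries. A gene was counted if it reached 50 CPM and 20 UMIs in 1 class of each library, with a ratio of at least 2 and an interval without 1 in both. This is a description, since both classes were gated on transcripts of these same cells, and the genes of the gates were not counted. The cDC2 gate was mixed as well. Cd209a was found in 70.0% of control and 46.4% of metformin cDC2, and a control cell held no H2-Aa UMI. A metformin cDC2 held 11 Naaa and 7 Wdfy4 UMIs, and another held 31 of Ly6c2 and 21 of Lyz2. Ratios without such cells are not given. By this rule 77 of 2396 genes were higher in cDC1 (3.21%) and 92 were lower (3.84%). Without the Siglech cells 78 of 2271 (3.43%) were higher and 99 (4.36%) lower.

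Of 20 genes known to mark cDC1, 13 outside the gates could be compared and 12 of them were higher than in cDC2. The median log2 ratio of the 13 was 2.98 in control and 2.52 in metformin, against 0.08 and 0.02 over all genes compared. The integrin Itgae (CD103) was at 184 against 3.75 CPM in control cDC1 and cDC2 and at 227 against 26.2 CPM in metformin. Naaa was at 869 against 109 CPM in control (ratio 8.0) and 1107 against 205 CPM in metformin (ratio 5.41). Ppt1, a lysosomal thioesterase, was 11.7 and 7.98 times as high, Cd24a, a surface glycoprotein, 4.88 and 4.42 times, and Wdfy4 2.94 and 3.39 times. Rab7b, a small GTPase of endosomes, had 71 UMIs against 0 in control, which is at least 14.7-fold higher over a floor of 3 UMIs, and 197 against 1 in metformin. Tlr3, the endosomal receptor for double-stranded RNA, had 54 UMIs against 0 in control (at least 11.2-fold higher) and 104 against 6 in metformin. The transcription factors Batf3 (ratios 2.42 and 3.82) and Id2 (2.93 and 5.78) were higher too. Ifi205 was the 1 marker compared that did not reach the rule, with ratios of 2.77 and 1.66.

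P2ry14, a receptor for UDP-sugars, had 76 and 167 UMIs in cDC1 and 2 and 1 in cDC2, and Agpat3, a lipid acyltransferase, had 30 and 55 against 0 and 0 (at least 6.20-fold and 6.83-fold higher). Cst3, the protease inhibitor cystatin C, was the most abundant of the 15 highest genes at 19425 and 18269.8 CPM, 4.66 and 2.96 times its level in cDC2. Gcsam and Nek6 were also among the 15. The rule was lost for Gcsam, with 29 and 73 UMIs, once the cell richest in it was left out of each library and class. Pclaf, a gene of dividing cells with 38 and 55 UMIs, lost it both then and without the Siglech cells.

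The remaining 3 of the 15 highest genes were carried by the Siglech cells. Ly6d had 73 and 301 UMIs in the gated cells against 1 and 0 in cDC2, Ccr9 79 and 126 against 1 and 2, and Cox6a2 74 and 90 against 3 and 0. None of the 3 met the rule once the 13 Siglech cells were left out, when Ly6d had no UMI left in cDC1 of either library.

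Genes of cDC2 identity were lower in cDC1, 9 of the 11 that could be compared, with none higher. The lectin Mgl2 had 2 and 3 UMIs in cDC1 and 41 and 44 in cDC2 (ratios 0.0303 and 0.0254). S100a4, a calcium-binding protein, was at 128 and 168 CPM against 1694 and 1379 (0.0755 and 0.122), and Tmem176b at 74.4 and 27.4 against 378 and 517 (0.197 and 0.0530). Ccl9, a chemokine, had no UMI in control cDC1 against 49 in control cDC2 (at least 26.3-fold lower), and 6 against 91 in metformin. Dab2, Mcemp1 and S100a6 were also among the 15 lowest, with ratios between 0.0620 and 0.299. The lipid carrier Fabp5 (0.0402 and 0.0604), the leukotriene receptor Ltb4r1 (0.0496 and 0.0745), the chemokine receptor Cx3cr1 (0.103 and 0.104) and Ly6i (0.149 and 0.200) were lower too, but lost the rule without the richest cells.

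**Figure D3:**
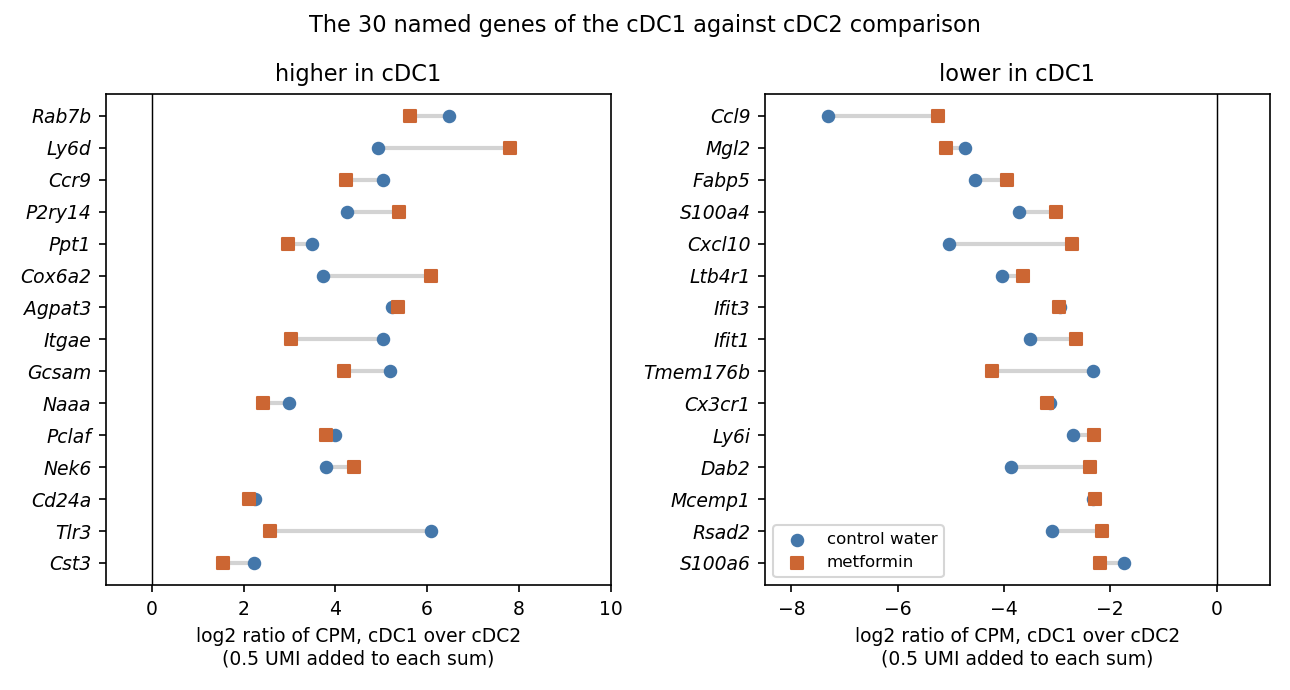
Points give the log2 ratio of CPM in cDC1 over cDC2, with 0.5 UMI added to each sum, for the 15 highest genes (left) and the 15 lowest (right), in the control (blue circles) and metformin (orange squares) library. Both libraries lie on the same side of 0 for each of the 30 genes. Ly6d, Ccr9 and Cox6a2 come from the Siglech cells.

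Interferon-induced genes were the other group that was lower in cDC1. Of 27 interferon response genes compared, none was higher and 10 were lower than in cDC2, against a background of 3.21% higher and 3.84% lower. The median log2 ratio of the 27 was -0.81 in control and -0.77 in metformin. Ifit3 was at 39.5 against 311 CPM in control and 50.8 against 399 CPM in metformin, a ratio of 0.127 in each. Ifit1 had ratios of 0.0827 and 0.159, Rsad2, which codes for the antiviral enzyme viperin, 0.113 and 0.224, and Mx1 0.266 and 0.466. Cxcl10 was at 34.9 against 1180.3 CPM in control and 159 against 1051 CPM in metformin. Other genes induced by interferon did not reach the rule: Isg15 had ratios of 0.972 and 0.794, Irf7 1.37 and 1.28, and Cxcl9 1.14 and 1.81. Oas1a met the rule in all gated cells and not without the Siglech cells.

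The promoters of 3 of these genes are shown because the lower genes differed from the higher ones in a sequence there. Sequences are the 250 bases before the start site (RefSeq, GRCm38.p6), 5′ to 3′ on the gene's strand, with capitals marking GAAANNGAAA, the repeat bound by interferon regulatory factors, or TGANTCA, bound by AP-1 factors, on either strand. Ifit1 is at chr19:34640639-34640888 (plus strand), Rsad2 at chr12:26456453-26456702 (minus strand) and Cxcl10 at chr5:92348890-92349139 (minus strand).
Ifit1: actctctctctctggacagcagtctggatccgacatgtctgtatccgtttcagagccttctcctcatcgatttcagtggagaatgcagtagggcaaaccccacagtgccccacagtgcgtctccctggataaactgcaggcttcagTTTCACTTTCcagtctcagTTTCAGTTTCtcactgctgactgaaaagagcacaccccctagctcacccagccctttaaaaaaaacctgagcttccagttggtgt
Rsad2: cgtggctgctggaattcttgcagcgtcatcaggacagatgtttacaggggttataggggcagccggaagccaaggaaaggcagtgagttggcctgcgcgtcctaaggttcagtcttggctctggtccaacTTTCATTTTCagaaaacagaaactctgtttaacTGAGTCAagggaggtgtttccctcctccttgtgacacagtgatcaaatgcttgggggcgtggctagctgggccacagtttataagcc
Cxcl10: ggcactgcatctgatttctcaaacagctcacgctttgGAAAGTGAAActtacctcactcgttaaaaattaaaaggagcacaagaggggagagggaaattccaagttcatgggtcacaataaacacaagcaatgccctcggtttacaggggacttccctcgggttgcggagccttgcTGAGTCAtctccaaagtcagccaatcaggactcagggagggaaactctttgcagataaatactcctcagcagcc
GAAANNGAAA was found in 14 of the 71 lower genes with a promoter sequence (19.7%), in 1 of 61 higher genes (1.64%) and in 3.46% of all 27025 genes with one. The lower genes include the interferon response genes above, so this share is not independent of that result and is a description only. The 27025 genes also include genes too low to be compared here. The motif lies 104 and 85 bases before the start of Ifit1, 120 bases before that of Rsad2 and 213 bases before that of Cxcl10. Isg15, which did not reach the rule, also has GAAANNGAAA, 78, 72 and 66 bases before its start. TGANTCA was found in 10 of the lower genes (14.1%), 3 of the higher genes (4.92%) and 7.82% of all genes. GGAANNGAAA, the combined site of PU.1 and IRF4 or IRF8, was found in 2 of the lower genes (2.82%), none of the higher genes and 2.68% of all genes. The motifs do not overlap each other in the 3 promoters shown. A match is a run of letters and not a measured site, and these windows hold no distant element.

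Between the libraries, cDC1 had more genes lower than higher in metformin, and many of the differences rested on single cells. The rule of size was: 50 CPM and 20 UMIs reached in 1 library, CPM at least 1.5 times as high in the one as in the other, and 1 outside the interval of that ratio. Immunoglobulin and T cell receptor segments and mitochondrial, ribosomal and predicted genes were left out of all such counts. There were 2790 eligible genes, whose median log2 ratio was -0.04. By the rule 125 of them (4.48%) were higher and 194 (6.95%) lower. Without the Siglech cells 141 of 2618 were higher (5.39%) and 190 lower (7.26%), of which 93 of the 125 and 131 of the 194 stayed within the rule. Leaving out the richest cell for each gene turned the balance to 180 higher and 114 lower, with 117 of the 125 and 110 of the 194 still meeting the rule. That step removes 1 of 24 control cells and 1 of 54 metformin cells. The share of higher genes among those past the rule was 39.2%, and 61.2% after that step. In cDC2, 163 of 2445 genes were higher (6.67%) and 103 lower (4.21%).

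Lyz2, the lysozyme of myeloid cells, led the 10 highest genes, at 97.6 CPM in control and 934 CPM in metformin (ratio 9.57, 7.03 to 13.4). The median cell held 0.5 UMIs in control (highest 14) and 1 in metformin (highest 549), so most cells of both libraries held few and the ranges overlap. A single metformin cell held 57.4% of the gene's UMIs there, and without the richest cells the ratio was 5.87. Lyz2 was at 517 and 860.0 CPM in cDC2 (ratio 1.66) and at 160.1 and 288 CPM in B cells. It was also higher in metformin in mature dendritic cells (27.3 and 148 CPM), CD8 T cells (44.3 and 194) and macrophages and microglia (2592 and 3716). In NK cells it was at 173 and 152 CPM. The same metformin cell held 64.3% of the UMIs of Apoe, a lipid carrier of macrophages, whose ratio of 3.68 became 1.51 without the richest cells and lost the rule. This is the cell described above, with 549 Lyz2 UMIs and no UMI of Xcr1, Batf3 or H2-Aa, and it was also the richest in Fcgr1, Ms4a4c and Ctss. Of the 15 macrophage and microglia markers 4 were eligible and 2 higher, Apoe and Fcgr1 (2.62), against 4.48% of all genes. The summed level of the 15 per 10000 UMIs ran from 1.08 to 11.2 over control cells and from 1.24 to 95.1 over metformin cells. The part of such a cell in these ratios beyond its own removal was not tested.

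Nfil3, a transcription factor needed for cDC1 to develop, was higher in metformin over many cells. It had 12 UMIs in 5 of 24 control cells and 107 UMIs in 26 of 54 metformin cells. The median was 0 in both libraries, with highest values of 6 and 19, and the ratio was 3.75 (2.06 to 7.48), or 6.11 without the richest cells. In cDC2 the ratio was 1.18, with 13 and 22 UMIs. Nfil3 was higher in metformin in other classes too, at 10.7 and 24.1 CPM in B cells and 48.4 and 73.5 in macrophages and microglia. Mature dendritic cells held it at 203 and 217 CPM and CD8 T cells at 27.8 and 31.5. Over all retained cells it was at 47.6 and 62.9 CPM. Of the 16 eligible dendritic cell transcription factors, which include the gate's Irf8, Nfil3 was the 1 that met the rule, against a background of 11.4% in either direction. With those 13 cells left out, 2 were higher, Nfil3 and Tcf4 (2.12), and 2 lower, Rel (0.618) and Relb (0.653). Irf8 (ratio 0.807), Id2 (1.15), Batf3 (1.16) and Spi1 (0.798) stayed within 1.5-fold.

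Rtl8a, a gene derived from a retroelement, was also spread over cells, with 9 UMIs in 6 control and 85 UMIs in 24 metformin cells (ratio 3.97). It was at 8.66 and 12.8 CPM in CD8 T cells and at 10.4 and 15.1 CPM over all retained cells. Exosc2, a subunit of the RNA exosome, had 3 UMIs in 3 control cells and 58 in 14 metformin cells (ratio 8.13, 2.65 to 40.6). Atr, a kinase of the DNA damage response, had 3 and 140 UMIs (ratio 19.6, 6.58 to 96.3). In metformin 73.6% of them lay in 1 cell, and the ratio was 7.78 without the richest cells and 53.5 (9.45 to 2129) for Atr without the Siglech cells, which leaves 1 control UMI. That cell also held 70.6% of the Cxcl10 UMIs, whose totals of 15 and 163 came from 2 control and 8 metformin cells (ratio 4.57, 2.69 to 8.35).

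The last 3 of the 10 highest genes rested on single cells or on the Siglech cells. Gzma, a granule protease of NK and T cells, had 3 and 57 UMIs with 82.5% in 1 metformin cell, and Bambi, a decoy receptor for TGF-β, 6 and 75 UMIs with 85.3% in 1 cell. Both lost the rule without the richest cells, with ratios of 4.10 and 1.52. Apod, a lipid-binding protein, had 8 and 102 UMIs (ratio 5.36), and a ratio of 1.15 without the Siglech cells. Of the 9 NK markers 3 were eligible, of which Gzma and Ccl5 were higher, against 4.48% of all genes. A single metformin cell was the richest in both, with 47 of the 57 Gzma UMIs and 105 of the 260 Ccl5 UMIs. The summed level of the 9 per 10000 UMIs reached 21.2 in the highest control cell and 79.5 in the highest metformin cell, with medians of 2.21 and 3.0.

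Gh, which codes for growth hormone, headed the lowest genes with 39 control UMIs in 7 cells and 1 metformin UMI. The same gene stood at 72.2 and 0.536 CPM in B cells, 77.4 and 0.724 in NK cells, 60.5 and 0.639 in CD8 T cells and 64.1 and 1.97 in macrophages and microglia. Its 90.6 CPM and 29.2% of cells in control cDC1 stand beside 22.0% to 24.7% of cells in those classes. Over all retained cells Gh was at 2267 CPM in control and 1.10 CPM in metformin. The source of these UMIs was not tested, so the Gh ratio is not taken as a trait of cDC1.

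Of the other 9 lowest genes, 3 rested on 1 control cell each. Ccr7, the receptor that guides dendritic cells to lymph nodes, had 223 UMIs in 3 control cells and 99 in 7 metformin cells. One control cell held 189 of them, and the ratio of 0.187 became 0.814 without the richest cells. Il12b, a chain of IL-12, had 52 and 19 UMIs, of which the same control cell held 92.3%, and its ratio of 0.154 became 0.313 and lost the rule. The neutrophil chemokine Cxcl2 had 24 and 2 UMIs, with 95.8% in another control cell, and lost the rule as well (0.0350 to 0.406). The share of cDC1 with at least 2 Ccr7 UMIs was 12.5% in control and 11.1% in metformin.

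Stmn1, a regulator of microtubules in dividing cells, was at 291 and 55.7 CPM (ratio 0.192, 0.138 to 0.264), or 0.335 without the Siglech cells. A control cell with no Siglech UMI held 60 of its 125 control UMIs, and a Siglech cell held 59. Without the Siglech cells the first of these held 60 of the 65 control UMIs left. The Stmn1 ratio without both cells was not tested. Tyms, which codes for thymidylate synthase, had 26 and 9 UMIs (0.146). The tight-junction gene Cldn1 had 40 UMIs in 8 control cells and 15 in 9 metformin cells (0.158), and the protease inhibitor Serpina3g 94 in 11 and 49 in 17 (0.219). For Serpina3g 55.3% of control UMIs lay in 1 cell, and the ratio was 0.406 without the richest cells. Pltp, a lipid transfer protein, had 51 and 23 UMIs (0.190), and Fcrla 36 and 12 (0.140). Without the Siglech cells Fcrla had a ratio of 0.573 and Pltp and Tyms fell short of the level needed, so those 3 lost the rule.

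**Figure D4:**
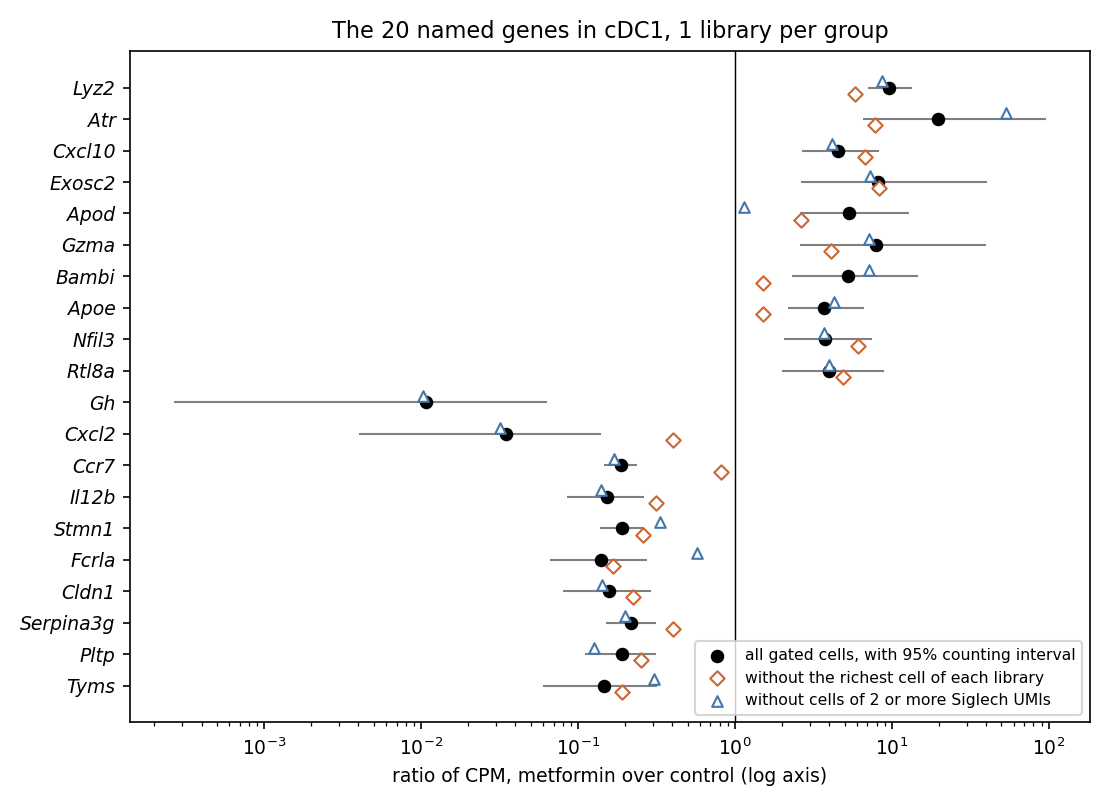
Black points give the ratio of CPM in metformin over control for the 20 named genes in cDC1 with exact 95% counting intervals, on a log axis. Orange diamonds leave out the cell richest in the gene in each library, and blue triangles leave out the cells with at least 2 Siglech UMIs. A ratio of 0, as for Gh without the richest cells, is not drawn. Ccr7 moves from 0.187 to 0.814 without the richest cells.

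Most genes of cDC1 identity were within the rule's limits between the libraries. Outside the gate's own genes 16 were eligible, of which 2 were higher and 1 was lower, against a background of 4.48% and 6.95%. Their median log2 ratio was 0.21, against -0.04 over all eligible genes. Leaving out the Siglech cells left 1 of all 19 higher and 1 lower. The gate's own genes, given as a description, had ratios of 0.894 for Xcr1, 0.742 for Clec9a and 0.807 for Irf8. Naaa was at 869 and 1107 CPM (ratio 1.27, 1.13 to 1.44) and Wdfy4 at 330.0 and 391 CPM (1.18, 0.976 to 1.44). Cadm1, an adhesion molecule used as a cDC1 marker, was lower at 76.7 and 24.4 CPM (ratio 0.319, 0.182 to 0.552), with 33 UMIs in 9 control and 25 in 11 metformin cells and at most 8 and 5 UMIs per cell. Sept3, a septin, was higher at 14 and 67 UMIs (2.01, 1.12 to 3.88). Snx22 was higher as well at 23 and 93 UMIs (1.70, 1.07 to 2.81), but lost the rule without the richest cells and without the Siglech cells.

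Genes of antigen presentation were at near equal levels in the 2 libraries. None of 20 eligible genes of MHC class I and cross-presentation and none of 13 of MHC class II met the rule, against a background of 11.4%. Their median log2 ratios were 0.04 and 0.05. H2-K1, an MHC class I heavy chain, was at 1922 and 1762 CPM (ratio 0.917, 0.844 to 0.996) and B2m, its light chain, at 2352 and 2268 (0.964, 0.895 to 1.04). H2-Ab1 was at 9515 and 9822 CPM (1.03, 0.995 to 1.07), and Cd74, the invariant chain, at 18902 and 19724 (1.04, 1.02 to 1.07). Among costimulatory genes, Cd86 (0.879, 0.697 to 1.12) and Cd274, which codes for PD-L1 (1.2, 0.780 to 1.91), stayed within the rule's limits. Tnfsf9, the ligand of 4-1BB, was the 1 of 8 that was past them, with 22 and 23 UMIs (0.440, 0.234 to 0.827).

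Cytokine and chemokine ligands were split, with 4 of 10 eligible genes higher and 3 lower, against a background of 4.48% and 6.95%, and a median log2 ratio of 0.12. Leaving out the Siglech cells left 3 higher and 2 lower. Il1b, an inflammatory cytokine, was at 885 and 1527 CPM (ratio 1.72, 1.54 to 1.93). It was found in 15 of 24 and 36 of 54 cells, with medians of 6 and 3 UMIs and highest values of 123 and 311, so the median cell held fewer in metformin. Ccl5, which draws T cells, had 68 and 260 UMIs (1.61, 1.23 to 2.13), and its highest metformin cell held 105. That cell was also the richest in Gzma and held 25 of the 27 metformin UMIs of Nkg7, another gene of the NK list. Ccl22 had 38 UMIs in 3 control and 140 in 3 metformin cells (1.55), and lost the rule without the Siglech cells. Cxcl10 is given above. Lower were Ccl4, at 205 and 242 UMIs (0.496, or 0.735 and past no limit without the Siglech cells), Il12b, and Ccl17, at 26 and 12 UMIs in 4 cells of each library (0.194, 0.0892 to 0.398). Cxcl9, which draws T cells through CXCR3, was at 711 and 783 CPM (1.10, 0.964 to 1.26). A single control cell held 192 of its 306 UMIs.

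Among 17 eligible chemokine and cytokine receptors, 2 were higher and 4 lower, against 4.48% and 6.95% of all genes. With those 13 cells left out, 2 were higher, Ifnar1 and Ifnar2 (1.78), and 3 lower. Ifnar1, a chain of the type I interferon receptor, was at 69.7 and 119 CPM (ratio 1.71, 1.14 to 2.64). Csf2rb2 was also higher (2.62, 1.45 to 5.13), but not within the rule without the Siglech cells. Ccr7, Cxcr4 (0.564), Il10ra (0.650) and Ptger4 (0.578), which binds prostaglandin E2, were lower. Of these, Ptger4 kept the rule without the richest cells. In the sensing list, 7 genes were eligible, with 1 higher and 1 lower, against the same 4.48% and 6.95%. Tmem173, which codes for STING, the adaptor for cytosolic DNA, had 23 UMIs in 15 of 24 control cells and 118 in 42 of 54 metformin cells (2.16, 1.37 to 3.53), with a highest value of 3 and 9. Irf3, which acts below it, had 24 UMIs in 16 and 27 in 22 cells (0.473, 0.263 to 0.856), and lost the rule without the Siglech cells. Tlr3 was at 126 and 102 CPM (0.810, 0.577 to 1.15). Of 7 eligible genes for uptake of dead cells, Elmo1 alone was past the rule (0.625, 0.399 to 0.988), and not without the richest cells. The background was 11.4% in either direction.

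Interferon response genes were at like levels, with 1 of 22 eligible genes higher, Cxcl10, and none lower, against 4.48% and 6.95% of all genes. Their median log2 ratio was 0.13. Iigp1, a GTPase, was lower as well without the Siglech cells (0.634). Isg15 was at 699.6 and 914 CPM (ratio 1.31, 1.15 to 1.49) and Ifitm3 at 2791 and 3138 (1.12, 1.05 to 1.20).

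Of the genes tied to the action of metformin and to oxygen, most that could be compared were within the rule's limits. None of 14 eligible hypoxia and glycolysis genes met the rule, against 11.4% of all genes, with a median log2 ratio of 0.06. Ldha, lactate dehydrogenase, was at 499.7 and 614 CPM (ratio 1.23, 1.05 to 1.44) and Gapdh at 1002 and 1007 (1.01, 0.898 to 1.13). Of 36 eligible genes of the complex I list, Ndufa4 was higher (1.51, 1.2 to 1.91) and Ndufs3 lower (0.659, 0.445 to 0.985). The background was 4.48% higher and 6.95% lower, and the median log2 ratio of the 36 was 0.15. Ndufa4 was listed by its name, and its product is a subunit of complex IV. Without the Siglech cells 4 of the list were higher, Ndufa4 (1.77) and, at 1.53 each, Ndufb7, Ndufa1 and Ndufb4, with Ndufs3 lower and a median of 0.21. The background in that setting was 5.39% higher and 7.26% lower. In the AMPK list Stk11 alone was eligible, at 23 and 48 UMIs (0.877, 0.523 to 1.51), so at this depth the list could not be compared.

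Of the cholesterol and lipid list, 5 of 11 eligible genes were higher in metformin and none lower, against 4.48% and 6.95% of all genes, and the median log2 ratio was 0.48. Leaving out the Siglech cells left 4 higher and none lower. Hmgcs1, an early enzyme of cholesterol synthesis, had 21 UMIs in 10 of 24 control cells and 149 in 26 of 54 metformin cells (ratio 2.98, 1.88 to 4.96). Msmo1, a later enzyme, had 14 UMIs in 6 and 103 in 25 cells (3.09, 1.76 to 5.86). Fdps had 55 and 209 UMIs (1.60, 1.18 to 2.19) and Cyp51 24 and 108 (1.89, 1.21 to 3.08). The fifth, Apoe, carries lipid rather than making it and came mostly from 1 cell. The deepest metformin cell, with 48490 UMIs, held the most of each of these enzymes, for example 75 of the 149 Hmgcs1 UMIs. Without the richest cells Hmgcs1 (2.30), Msmo1 (3.54) and Fdps (1.97) still met the rule and Cyp51 (1.55) did not, and Fdps lost it without the Siglech cells (1.42). Over the same 11 genes cDC2 had a median log2 ratio of -0.30, with Hmgcs1 at 19 and 9 UMIs, and B cells held Hmgcs1 at 11.5 and 9.64 CPM. In CD8 T cells Hmgcs1 was at 27.7 and 33.3 CPM, Cyp51 at 14.6 and 20.1 and Fdps at 21.7 and 34.6, so Fdps differed there by about as much as in cDC1. Over all retained cells Fdps was at 22.4 and 34.9 CPM and Hmgcs1 at 24.6 and 31.9.

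Of the cell cycle list, 5 of 10 eligible genes were lower in metformin and none higher, against 6.95% and 4.48% of all genes, with a median log2 ratio of -1.21. Mki67, a marker of dividing cells, had 40 UMIs in 7 of 24 control cells and 25 in 8 of 54 metformin cells (ratio 0.263, 0.153 to 0.444). Top2a had 29 and 14 UMIs (0.203) and Birc5 29 and 19 (0.275), and in control 1 cell of 39814 UMIs held the most of Mki67, Top2a, Birc5 and Stmn1. Cells with at least 2 UMIs of Mki67 and Top2a together were 5 of 24 in control (20.8%, 7.13 to 42.2) and 5 of 54 in metformin (9.26%, 3.08 to 20.3). Without the Siglech cells Mki67 (0.258) and Stmn1 met the rule and Top2a, Birc5 and Tyms did not, so 2 genes were lower, and 1 was higher, Pcna (2.42, with 15 and 60 UMIs in all gated cells). The median log2 ratio was then -0.90. Of the 65 control Stmn1 UMIs left, the control cell of 39814 UMIs held 60, so that gene rested on 1 cell. Over the same genes cDC2 had a median log2 ratio of 0.65, at few UMIs (Mki67 1 and 9 UMIs).

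Early response and stress genes were all eligible, 23 of 23, with none higher and 4 lower, against a background of 4.48% and 6.95%, and a median log2 ratio of -0.14. The lower genes were Jun (495 and 234 CPM, ratio 0.472, 0.391 to 0.570), the NF-κB inhibitor Nfkbia (516 and 199, 0.386, 0.318 to 0.469), Dnajb1 (265 and 125, 0.472, 0.364 to 0.613) and Nr4a1 (421 and 262, 0.623, 0.514 to 0.756). Jun had a median of 6.5 UMIs per control cell (highest 39) and 2.5 per metformin cell (highest 20). Nfkbia had medians of 2.5 and 1. Each of the 4 kept the rule without the richest cells and without the Siglech cells, when 3 other genes were lower and Klf2 higher as well. The median was 0.06 without the richest cells, against -0.14. Such genes also respond to the handling of tissue, which no label describes by library, and its part was not tested. In the stress list of the endoplasmic reticulum, Herpud1 was lower (0.520, 0.412 to 0.657) and the other 11 eligible genes, such as Hspa5 (0.995, 0.869 to 1.14), were not past the rule. Ddit3 was lower too without the Siglech cells (0.520).

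Genes shared by all conventional dendritic cells were at near equal levels, with none of 9 eligible genes past the rule. For this list and those below, the background was 4.48% higher and 6.95% lower, or 5.39% and 7.26% without the Siglech cells. Flt3, the receptor for the growth factor FLT3L, was at 179 and 164 CPM (ratio 0.917, 0.696 to 1.22). Of the cDC2 list, 8 genes were eligible: the lectin Clec10a was higher at 20 and 100 UMIs (2.10, 1.29 to 3.59, but past no limit without the Siglech cells), and Tmem176a (37 and 17 UMIs, 0.193) and Tmem176b (32 and 28 UMIs, 0.368) were lower. Notch2 was lower too without the Siglech cells (0.637), and none was higher. Of the mature dendritic cell list, 6 were eligible, with Ccl22 higher and Ccr7 and Serpinb6b (61 and 47 UMIs, 0.324) lower. Relb was lower too without the Siglech cells, and none was higher. The highest and second highest control cells held 27 and 20 of the 61 Serpinb6b UMIs, and the highest was also the richest in Ccr7. Of 5 eligible monocyte markers, Ms4a4c was higher at 69 and 300 UMIs (1.83, 1.40 to 2.41), and without the Siglech cells Ly6c2 was higher too (1.75). The median log2 ratio of the 5 was 0.12, or 0.75 without the Siglech cells. Of the 389 metformin Ly6c2 UMIs then left, 234 lay in the single cell with 549 Lyz2 UMIs. In the cells with Xcr1, Ly6c2 was lower in metformin, at 253 CPM in control and 166 CPM in metformin. Of 8 eligible plasmacytoid markers, Ly6d was higher (1.73) and Cox6a2 (0.511) and Klk1 (0.275) were lower, all 3 through the Siglech cells, without which none of these 3 met the rule and Tcf4 was higher (2.12). The T cell and neutrophil lists had no eligible gene. The B cell list had none outside the immunoglobulin genes, which were not counted. Of these, Ighm was at 299.8 and 149.5 CPM and Igkc at 90.6 and 18.6 CPM, which make up most of the list's summed 402 and 179 CPM.

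**Figure D5:**
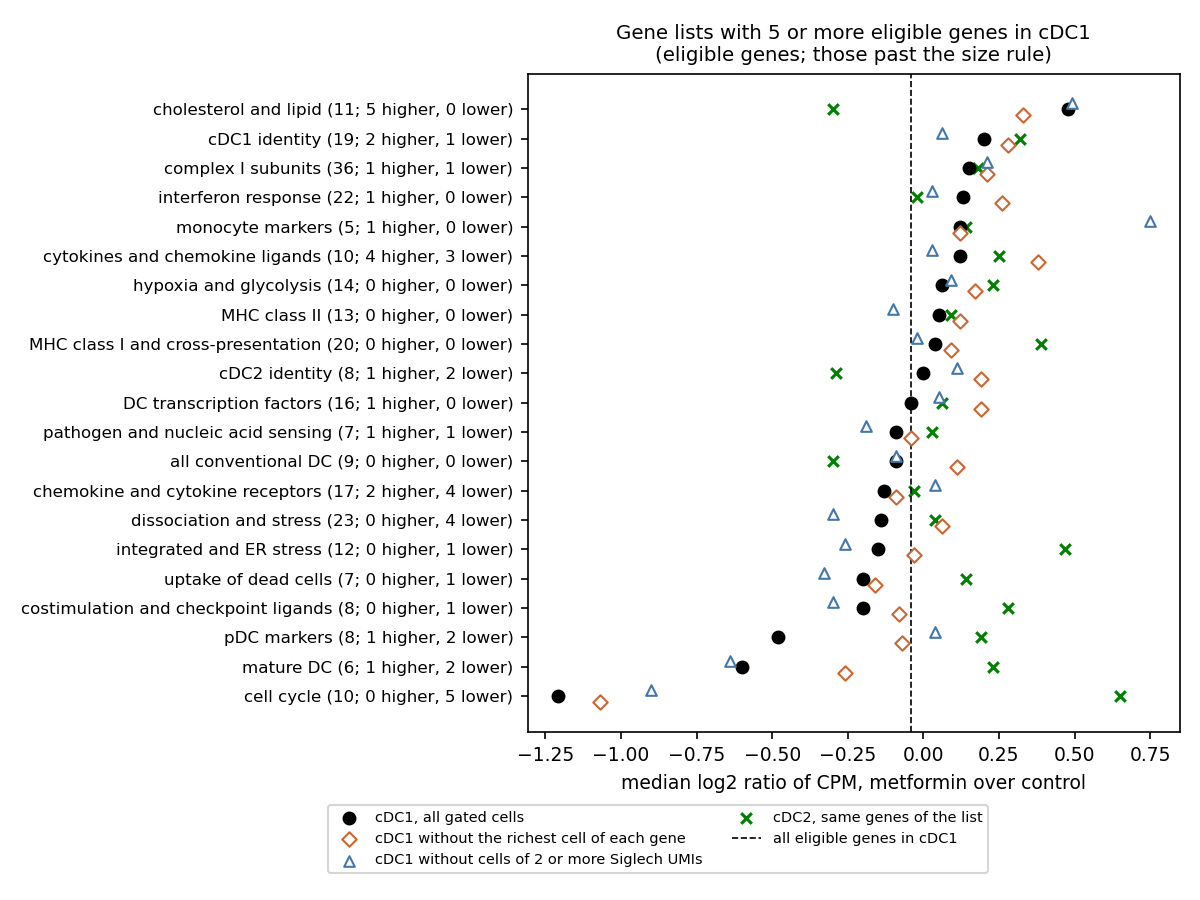
For each gene list with 5 or more eligible genes, black points give the median log2 ratio of metformin over control in cDC1, with the number of eligible, higher and lower genes beside its name. Open diamonds leave out the richest cell of each gene, open triangles the Siglech cells, and green crosses give cDC2 for the genes eligible in cDC1. The dashed line is the median of all eligible genes, -0.04. Cholesterol and lipid genes are highest at 0.48 and cell cycle genes lowest at -1.21.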

How the data were processed

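Raw UMI counts per gene and barcode were used as the authors deposited them, 1 matrix per library, with 31053 genes. The submitters' processing notes name Cell Ranger, Seurat and mm10, and per the file headers the matrices were written by matrix software 3.0.0. Aligner settings, annotation and cell calling are not given in the sources used here.

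Members of the gate and of the gene lists were chosen with earlier results of these data known. Barcodes with at least 300 genes and at most 10% mitochondrial UMIs were kept. Scrublet (scanpy 1.11.5, expected share 5%) marked doublets, which were not removed. Cell classes were rebuilt from counts by gates, so a difference from the study's own classes may come from that. Sums of UMIs over the cells of a class in a library were scaled to CPM. Ratios have exact conditional 95% intervals and shares exact Clopper-Pearson ones (scipy 1.17.1), and log2 ratios add 0.5 UMI to each sum. A fold against no UMI uses a floor of 3 UMIs per sum. Detection was also computed after thinning to 8902 UMIs per cell. The rules of size were tested on simulated data. Genes are named as the 10 highest and 10 lowest between libraries, and the 15 and 15 between cDC1 and cDC2, ranked by the interval bound nearest to 1. Immunoglobulin and T cell receptor segments, mitochondrial, ribosomal and haemoglobin genes, Xist, Y-linked and predicted genes were left out of eligible genes, counts and names. Every list adds its most abundant members and those past the rule, of which some are given by count only. Alternatives left out the cell richest in each gene, changed the limits on genes, mitochondrial share, Xcr1 and Clec9a and the cDC2 gate, removed doublets, changed the floors and the fold, or scaled to the median ratio. Leaving out the Siglech cells, and keeping only cells with an Xcr1 UMI, were added after seeing the data. Promoters are RefSeq's on GRCm38.p6. Python 3.11.15, numpy 2.4.6, pandas 2.3.3 and matplotlib 3.10.9 were used.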

Additional observations from a re-analysis of the deposited data

Results flagged for a closer look

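Among the genes past the rule in both cDC1 and cDC2, 6 of those that the lists or the naming rule cover differed in opposite directions between the libraries, lower in metformin cDC1 and higher in metformin cDC2. The difference between the 2 cell types was not tested, since each group is 1 library. Over all eligible genes 11.4% were past the rule in cDC1 and 10.9% in cDC2, in either direction. How many genes were past it in the same direction in both is not given, so the 6 are a description only. Values without the richest cells are given for cDC1 only. Ccr7 had a ratio of metformin over control of 0.187 in cDC1 (223 and 99 UMIs) and 2.10 in cDC2 (21 and 63 UMIs), but 0.814 in cDC1 without the richest cells. A single metformin cDC2 held 34 of the 63 UMIs. Cxcr4 had ratios of 0.564 (44 and 59 UMIs) and 1.83 (31 and 81 UMIs), and it also lost the rule in cDC1 without the richest cells. Ccl4 had ratios of 0.496 (205 and 242 UMIs) and 2.02 (102 and 294 UMIs), with 0.735 in cDC1 and the rule lost without the Siglech cells. Nr4a1, an early response gene, had ratios of 0.623 (181 and 268 UMIs) and 2.85 (29 and 118 UMIs). Tmem176a had ratios of 0.193 (37 and 17 UMIs) and 1.63 (81 and 189 UMIs). Ccl17 had a ratio of 0.194 in cDC1 (26 and 12 UMIs) and no UMI against 21 in cDC2. Those 21 UMIs lay in 2 of 28 metformin cDC2. In mature dendritic cells Ccl17 was lower in metformin, as in cDC1, at 207 and 33.2 CPM. These last 3 genes kept the rule in cDC1 both without the richest cells and without the Siglech cells.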

How the results depend on the processing

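The share of cDC1 in metformin over control stayed between 2.30 and 2.95 over the alternatives, and the number of cDC1 per cDC2 between 1.39 and 2.07. The count of genes higher in metformin, 125, was 224 with no CPM floor and 10 UMIs and 48 with a fold of 2. The count of lower genes, 194, was 318 and 78 under those settings and 114 without the richest cells. The count of genes higher in cDC1 than cDC2, 77, was 128 with no CPM floor and 10 UMIs. The split of calls was 39.2% higher as reported, 61.2% without the richest cells and 46.3% when scaled to the median ratio, and the cause was not tested. Of 60 genes named or listed past the rule, 49 kept it without the richest cells, 43 without the Siglech cells, 58 when scaled to the median ratio (all but Elmo1 and Ndufs3) and 27 with at least 4 UMIs of Xcr1 and Clec9a, which keeps fewer cells. In 7 cases a ratio could not be given because no control UMI was left. No called gene changed direction, while list medians near 0 did, such as MHC class II (0.05, or -0.10 without the Siglech cells). No paired analysis was possible because each group is 1 library, and for that reason no library could be left out. With 24 control cells summing to 430273 UMIs, a gene at 50 CPM has about 20 UMIs, so genes below that level, most of the AMPK list among them, could not be compared.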

Other observations

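Beyond the lists, 12 further genes were past the rule in opposite directions in cDC1 and cDC2, a difference that was not tested. Over all eligible genes 11.4% were past the rule in cDC1 and 10.9% in cDC2, and genes that moved the same way in both are not counted here. Rgs1, which dampens chemokine receptor signalling, had a ratio of metformin over control of 0.578 in cDC1 (141 and 194 UMIs) and 10.2 in cDC2 (18 and 263 UMIs). Fosl2, a part of AP-1, had ratios of 0.488 (31 and 36 UMIs) and 1.63 (39 and 91 UMIs). Ms4a6b ran the other way, at 2.46 in cDC1 (28 and 164 UMIs) and 0.650 in cDC2 (141 and 131 UMIs). All 3 kept the rule in cDC1 without the richest cells and without the Siglech cells, and they were chosen after their values were seen. No values without the richest cells are given for cDC2.

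Cells with at least 10 UMIs of Ly6c2, a gene of monocytes and plasmacytoid cells, were 7 of 24 control and 15 of 54 metformin cDC1 (29.2% and 27.8%). Igkc, an immunoglobulin chain of B cells, stood at 90.6 CPM in control and 18.6 CPM in metformin cDC1, and at 197 and 7.60 CPM in NK cells. B cells, the class that makes it, held 38818 and 12946 CPM.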
